A study of Homo sapiens with 3 samples.

Results

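The genes described here are 36 core genes of apoptosis: the BCL2 family, caspases with their activating platform, the inhibitor of apoptosis proteins, and the adaptors of death receptors. They were chosen by symbol from a list, and 36 of the 20344 genes in the deposited tables matched it. RNA was measured by messenger RNA sequencing in A375, a human melanoma line that carries mutant BRAF. The series has 3 samples, and 2 libraries were used, 1 titled A375, Prop and 1 titled A375-VR, Prop. Not analysed here is a sample with the title A375-VR, DMSO. The labels disagree on what these libraries are. The extraction protocol names A375-VR cells kept in DMSO or in 20 µM propranolol, a blocker of beta-adrenergic receptors, for 24 h, while the other labels of the first library call its cells A375. The series title concerns this drug and resistance to the BRAF inhibitor vemurafenib, and the labels do not say how the A375-VR cells were made or whether they are 1 clone. A difference between the libraries can therefore be one of cell line, of treatment, of culture or of library preparation, and these cannot be told apart.

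In the mitochondrial route of apoptosis, guardian proteins such as BCL2, BCL-XL and MCL1 hold the pore formers BAX and BAK1 in check. BH3-only proteins, which carry 1 short helix of the family, bind the guardians or the pore formers and tip that balance. Once the outer mitochondrial membrane is open, cytochrome c joins APAF1 to activate caspase-9, while SMAC/DIABLO blocks the inhibitor of apoptosis proteins. In the receptor route, FADD brings caspase-8 to ligand-bound death receptors, and CFLAR holds it back. Melanoma cells are known for a strong reliance on MCL1 and BCL-XL, and in cells with mutant BRAF, ERK signalling keeps the BH3-only protein BIM low.

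Levels are given as deposited, in FPKM, which divides the reads or fragments of a gene by its length and by the library total. A ratio is the FPKM of the A375-VR library divided by that of the A375 library, and a difference is on the log2(FPKM + 1) scale, which understates the change of low genes. The range after a ratio is its 95% exact Clopper-Pearson interval, taken from the whole reads that the FPKM values imply. It covers counting error only. Each group has a single library, so nothing was tested and no p-value is given. The libraries were scaled to totals of 17811339 (A375) and 16438482 (A375-VR), and genes past the filter, which asks for 1 FPKM or more in 1 library or both, had a median of 605 and 621 recovered reads. Of the 8 melanocyte lineage markers, summed at 76.2 and 166 FPKM, SOX10 had 65.3 and 149.6 FPKM and S100B 3.72 and 12.6. MITF went the other way, with 6.47 and 3.47 FPKM, as did S100A1, with 0.500293 and 0.120461. PMEL, with 0.158 and 0.530, and DCT, with 0.0149 and 0.0806, were higher in the A375-VR library but, like S100A1, below the filter. The pigment gene TYR was listed at 0 in both libraries and MLANA at 0 and 0.0592 FPKM. Of the other markers checked, PTPRC and CD3E of leukocytes were at 0 in both, while CD14 had 0.0595 and 0.710 FPKM, most of a leukocyte sum of 0.0595 and 0.752. Of the 4 endothelial markers, summed at 0.568 and 2.07 FPKM, PECAM1, CDH5 and VWF lay at or below 0.116, and KDR passed the filter with 0.394 and 1.84. Of the 4 fibroblast markers, summed at 4.74 and 6.62 FPKM, COL1A1 and DCN lay at or below 0.314, and LUM with 2.99 and 4.89 and PDGFRB with 1.38452 and 1.50015 passed the filter. Of the 4 keratinocyte markers, summed at 47.8 and 59.5 FPKM, KRT10 had 44.9 and 56.0 FPKM, KRT14 2.73 and 3.47, and KRT1 was listed at 0. The part of other cell types in the results below was not tested.

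The promoters of 3 members are shown first. CYCS and PMAIP1 were lower in the A375-VR library and BIRC2 had nearly the same level in both, and all 3 promoters hold the letters TGACGT, the core of the cAMP response element bound by CREB and ATF factors. This choice of 3 was made with their values known. The sequences are from RefSeq on GRCh38.p14, run 5′ to 3′ on the gene's strand, and cover 250 bases before the annotated start and 10 bases after it. Capitals mark the match, on either strand. They stand at chr7:25125251-25125510 on the minus strand for CYCS, at chr18:59899746-59900005 on the plus strand for PMAIP1 and at chr11:102346964-102347223 on the plus strand for BIRC2.
CYCS: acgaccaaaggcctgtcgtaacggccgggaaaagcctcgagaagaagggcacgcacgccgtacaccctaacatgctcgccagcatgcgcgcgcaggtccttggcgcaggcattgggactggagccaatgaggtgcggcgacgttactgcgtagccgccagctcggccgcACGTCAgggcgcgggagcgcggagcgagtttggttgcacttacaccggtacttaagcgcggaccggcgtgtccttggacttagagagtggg
PMAIP1: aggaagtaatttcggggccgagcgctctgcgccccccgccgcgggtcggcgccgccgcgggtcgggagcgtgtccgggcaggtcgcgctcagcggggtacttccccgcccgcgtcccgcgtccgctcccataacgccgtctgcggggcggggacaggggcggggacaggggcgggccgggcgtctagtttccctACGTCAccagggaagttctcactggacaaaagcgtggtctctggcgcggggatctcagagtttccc
BIRC2: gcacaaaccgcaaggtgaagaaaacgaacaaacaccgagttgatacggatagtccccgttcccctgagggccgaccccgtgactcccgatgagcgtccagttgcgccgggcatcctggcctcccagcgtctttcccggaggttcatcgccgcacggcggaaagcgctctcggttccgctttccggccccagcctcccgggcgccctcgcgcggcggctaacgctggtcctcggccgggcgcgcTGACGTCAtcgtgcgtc
The last base of the match lies 76 bases before the start in CYCS and 51 bases before it in PMAIP1, where the core reads ACGTCA on the gene's strand. In BIRC2 the match is the full palindrome TGACGTCA, and it ends on the start base itself.

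The table of promoters holds 31 of the 36 members, and BCL2L2, BIK, CASP10, MCL1 and TRADD have no entry in it. Windows of 300 bases were searched on both strands. A member was counted where any window under its symbol matched, whereas each percentage is a share of single windows. The number of members with a match therefore cannot be set directly against that percentage. TGACGT was found in BAD, BIRC2, BNIP2, CYCS, PMAIP1 and XIAP, and in 7.98% of all 35116 windows. The members that hold it lay on both sides: CYCS and PMAIP1 had ratios of 0.714 and 0.733, BNIP2 and BIRC2 of 0.9504 and 1.00, and BAD and XIAP of 1.18 and 1.29. The palindrome TGACGTCA, which contains that core, was in BIRC2 and in 1.85% of all windows. The E-box CACGTG was in BAX, BBC3, BID and DIABLO (7.26% of all windows). CATGTG, an E-box that the melanocyte factor MITF can bind, was in BCL2A1, BCL2L12, BCL2L13, BID, BIRC3, CASP8, HRK and XIAP (11.1% of all windows). The AP-1 letters TGAGTCA were in BBC3, BCL2L13 and CASP8 (4.95% of all windows). No member's window held the E2F letters TTTGGCGC, TTTCCCGC, TTTCGCGC or TTTGGCGG, which are each in 0.515% to 1.63% of all windows. A match is a description of these letters and not a bound site.

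Among genes past the filter, the apoptosis genes differed between the libraries about as often as all genes did. The largest difference was that of the BH3-only gene BIK, which was 7.15-fold lower in the A375-VR library. A total of 27 members passed the filter and 9 did not. Of the 27, 0 were higher by 2-fold or more in the A375-VR library on the log2(FPKM + 1) scale (3.14% of the 10761 genes past the filter were) and 1, BIK, was lower by 2-fold or more (0.613% of genes), so 1 was apart either way (3.75% of genes). BIK passed the filter through the A375 library alone, where it is high. A difference above 0 was found for 15 of the 27 (60.3% of all genes) and one below 0 for 12 (39.7% of all genes). A total of 22 of the 27 had a ratio within 1.5-fold either way. The share of all genes within that range was not computed, so this count cannot be set against other genes. The median difference of the 27 was 0.05, beside 0.10 for all genes past the filter. Of the 27, 25 lay between the 5th percentile of all genes, at -0.55, and the 95th percentile, at 0.84, a range that holds most genes by definition. Counting error alone was small for most members: the interval lay above 1 for 12 of the 27 (43.6% of all genes), below 1 for 8 (26.4% of all genes), and spanned 1 for 7 (30% of all genes). These shares are close to the background. Lower RNA in a bulk sample can come from fewer cells of a kind or from less RNA per cell, and these cannot be told apart.

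**Figure D1:**
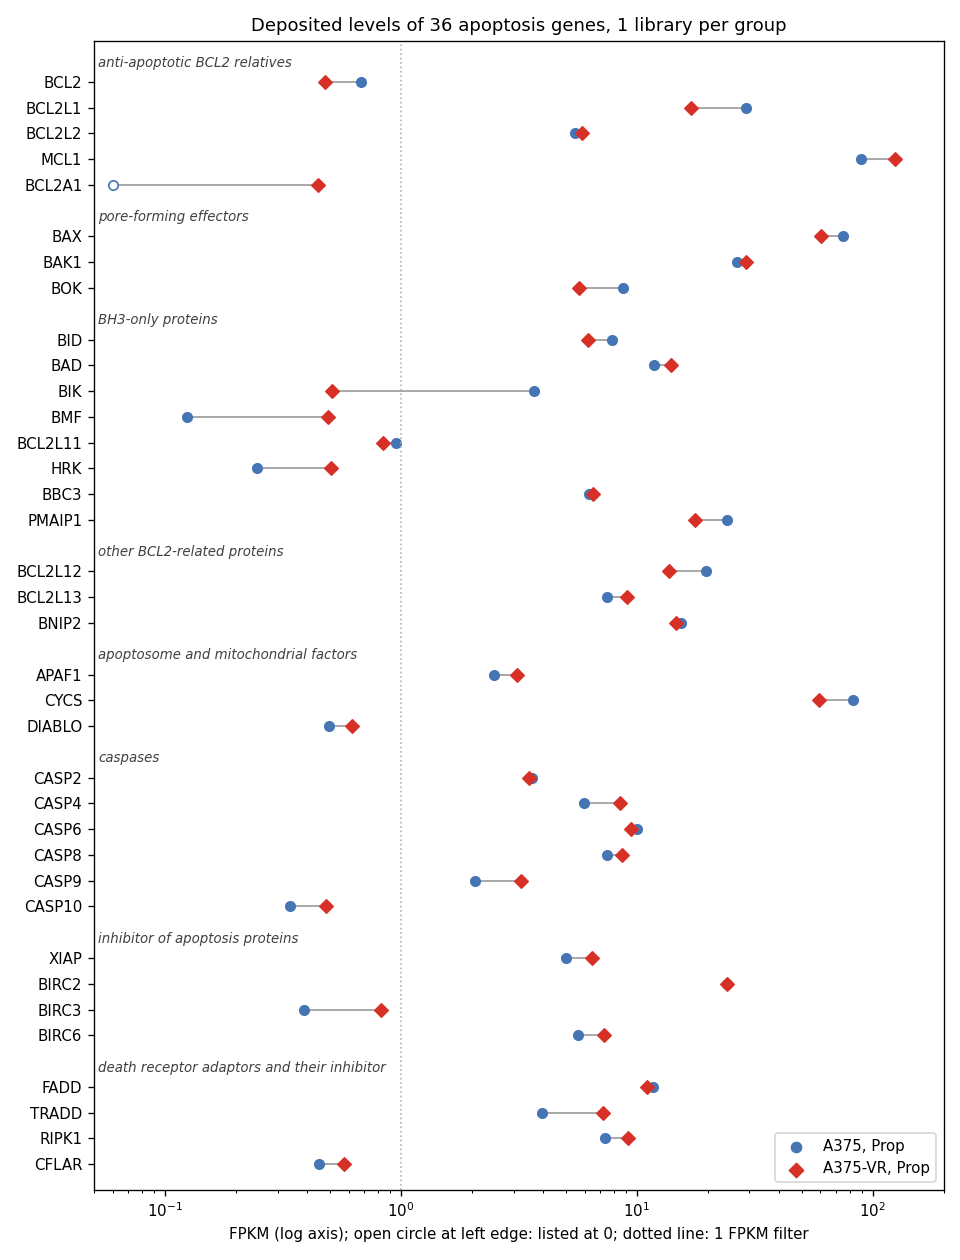
Deposited FPKM (horizontal log axis) of the 36 apoptosis genes, ordered by role, with 1 circle for the library titled A375, Prop and 1 diamond for the library titled A375-VR, Prop. The symbols lie close together for most genes. BIK has the longest line to the left, from 3.65 to 0.511 FPKM, and BCL2A1 is listed at 0 in the A375 library.

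Among the anti-apoptotic relatives, MCL1 was higher and BCL2L1 lower in the A375-VR library. MCL1 (Entrez 4170), a short-lived guardian of the outer mitochondrial membrane, lies on the minus strand of chromosome 1, from 150533371 to 150552214 in GRCh37. Its level was 88.8 FPKM in A375 and 124.6 FPKM in A375-VR, a ratio of 1.40 (1.36 to 1.45) from 6913 and 8955 recovered reads. It was the most abundant of the 36 genes in both, and its difference of 0.48 lay at percentile 84.0 of all genes. BCL2L1 (Entrez 598), which encodes BCL-XL and its short pro-apoptotic splice form, lies on the minus strand of chromosome 20, from 30252255 to 30311792. It had 29.1 and 16.9 FPKM, a ratio of 0.581 (0.518 to 0.651), and a difference of -0.75, at percentile 1.76 of all genes. The values of a gene do not separate its splice forms. In GENCODE 44 the antisense gene ABALON covers 41.3% of the exonic bases of BCL2L1, and whether strand was used in counting is not given in the sources used here, so that value is uncertain.

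These 2 genes went opposite ways, so the ratio of MCL1 to BCL2L1 in FPKM was 3.05 in A375 and 7.36 in A375-VR, 2.42 times higher. MCL1 made up 71.6% of the summed FPKM of the 5 anti-apoptotic genes in A375 and 84.0% in A375-VR, and BCL2L1 23.5% and 11.4%. BCL2L2, which encodes the guardian BCL-W, had 5.47 and 5.85 FPKM, a ratio of 1.07 (0.930 to 1.23) whose interval spanned 1, and its difference of 0.08 turned to -0.04 with the trimmed mean of log ratios. It shares 16.8% of its exonic bases with the read-through gene BCL2L2-PABPN1, so its count depends on how shared reads were assigned. BCL2 itself, the founding guardian, was low, with 0.678 and 0.476 FPKM over a long gene model of 11765 bp, and its ratio was 0.702 (0.534 to 0.919) from 142 and 92 reads. BCL2A1, a guardian that MITF is known to drive in pigmented melanoma, was listed at 0 in the A375 library and had 0.447 FPKM, from 8 reads, in the A375-VR library. Against a floor of 3 reads in the A375 library it was 2.89-fold higher, a value that leaves counting error out. Its counting interval, from the 0 and 8 reads, begins lower, at 1.85. Its level was below the filter in both. MITF had 6.47 and 3.47 FPKM, the opposite direction.

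**Figure D2:**
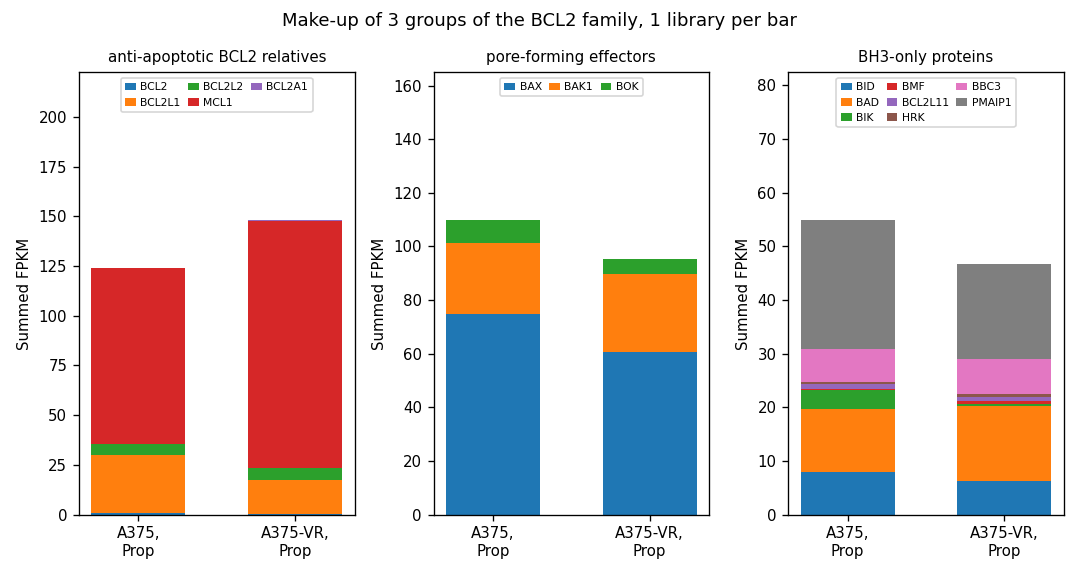
Summed FPKM (vertical axis from 0) of 3 groups of the BCL2 family, stacked by gene, with 1 bar per library. MCL1 fills more of the anti-apoptotic bar in the A375-VR library (84.0% against 71.6%), BAX is the largest pore former in both, and the BIK layer shrinks from 6.65% to 1.09% of the BH3-only sum.

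The pore formers were led by BAX in both libraries. BAX (Entrez 581; chromosome 19 at 49458072 to 49465055, plus strand), which sits in the cytosol until it is activated, had 74.7 and 60.6 FPKM, a ratio of 0.811 (0.770 to 0.853). Its difference lay at percentile 14.9 of all genes. BAK1, the pore former that resides on mitochondria, had 26.5 and 29.1 FPKM, a ratio of 1.10 (1.01 to 1.20), close to the median gene at 1.08. Its difference of 0.13 turned to -0.01 when the libraries were scaled by the trimmed mean of log ratios. The ratio of BAX to BAK1 was 2.82 in A375 and 2.08 in A375-VR. BOK (Entrez 666; chromosome 2 at 242490839 to 242513546, plus strand), a relative that can form pores on its own, had 8.74 and 5.70 FPKM, a ratio of 0.652 (0.556 to 0.764), at percentile 5.27 of all genes. BAX and BOK were thus lower in the A375-VR library, and BAK1 stayed near the median gene. The summed FPKM of the 3 was 110 in A375 and 95.3 in A375-VR.

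BH3-only genes went both ways, from BIK, the lowest fold of the 36 genes, to BMF, a low gene with the highest fold that could be computed. BIK (Entrez 638; chromosome 22 at 43506756 to 43525718, plus strand), a BH3-only protein of the endoplasmic reticulum, had 3.65 FPKM from 62 reads in the A375 library and 0.511 FPKM from 8 reads in the A375-VR library. Its ratio was 0.140 (0.0578 to 0.293), or 7.15-fold lower (3.41 to 17.3), and its difference of -1.62 lay at percentile 0.0743 of all genes past the filter. In GENCODE 44 no other gene overlaps its exons. PMAIP1 (Entrez 5366; chromosome 18 at 57567228 to 57571537, plus strand), which encodes NOXA, the BH3-only protein that binds MCL1, was the most abundant BH3-only gene. It had 24.1 and 17.6 FPKM, a ratio of 0.733 (0.662 to 0.811), at percentile 8.96 of all genes. BID, which links caspase-8 to mitochondria when cut, had 7.88 and 6.21 FPKM, a ratio of 0.788 (0.661 to 0.938).

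The other BH3-only genes were level or higher. BBC3, which encodes PUMA, had 6.25 and 6.52 FPKM, and its ratio of 1.04 (0.897 to 1.21) spanned 1 (its difference fell below 0 with centring or the trimmed mean). BAD, whose protein is kept inactive by survival kinases, had 11.8 and 13.9 FPKM, a ratio of 1.18 (1.02 to 1.37). BCL2L11, which encodes BIM, had 0.953 and 0.841 FPKM from 113 and 92 reads, and its ratio of 0.882 (0.663 to 1.17) spanned 1. The lowest genes of the group were higher in the A375-VR library. BMF, a BH3-only protein tied to the cytoskeleton, had 0.124 and 0.491 FPKM from 12 and 44 reads, a ratio of 3.97 (2.06 to 8.26). HRK, best known from neurons, had 0.246 and 0.506 FPKM from 30 and 57 reads, a ratio of 2.06 (1.301 to 3.32). On the log2(FPKM + 1) scale their differences were 0.41 and 0.27, short of the 2-fold call, and neither passed the filter. Summed over the 8 BH3-only genes, FPKM was 54.9 in A375 and 46.6 in A375-VR, and PMAIP1 made up 43.8% and 37.8% of these sums.

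Of the other relatives, BCL2L12, a BCL2-like protein found in glioma to block caspases, had 19.7 and 13.7 FPKM, a ratio of 0.698 (0.553 to 0.879). It overlaps the opposite-strand gene IRF3 over 25.9% of its exonic bases, so its value is uncertain without strand. BCL2L13, a mitochondrial receptor for mitophagy, had 7.50 and 9.08 FPKM, a ratio of 1.21 (1.11 to 1.32), and BNIP2, a BCL2-interacting protein, had 15.4 and 14.6 FPKM, a ratio of 0.9504 (0.893 to 1.01).

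**Figure D3:**
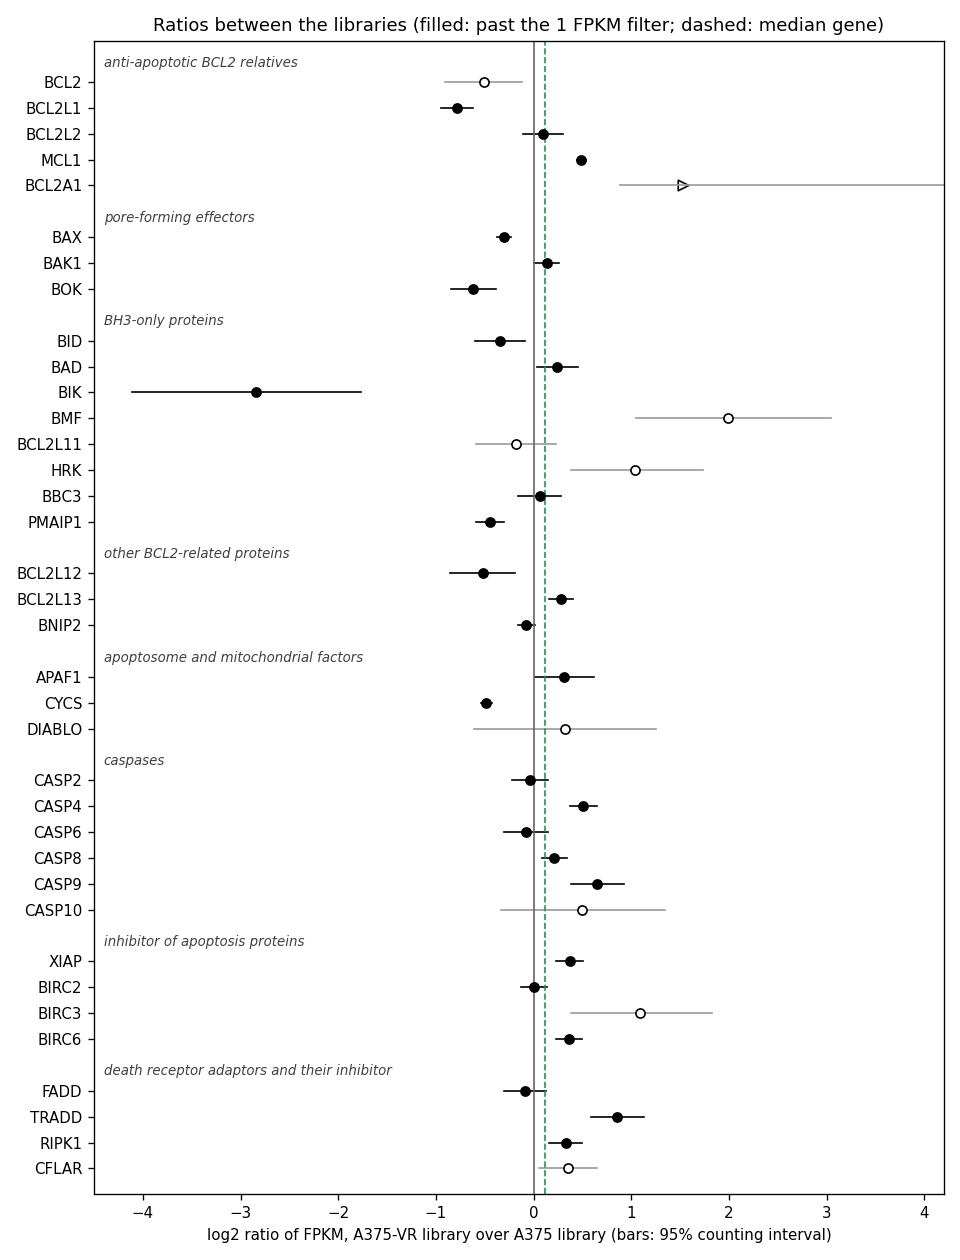
Log2 ratio of FPKM, A375-VR library over A375 library, for each apoptosis gene (points) with its 95% counting interval (bars); filled points passed the filter, the dashed line is the median gene at a ratio of 1.08, and the open triangle for BCL2A1 is set against the floor of 3 reads, with a bar that begins at its interval's lower end. BIK lies farthest to the left, the intervals of BCL2L1, BOK, PMAIP1 and CYCS lie wholly below 0, and those of TRADD, CASP9 and MCL1 wholly above.

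Downstream of the pore, cytochrome c was lower and caspase-9 higher in the A375-VR library, while the interval of APAF1 took in the ratio of the median gene. CYCS (Entrez 54205; chromosome 7 at 25158275 to 25164879, minus strand of GRCh37), the electron carrier that triggers the apoptosome once released, had 82.5 and 58.9 FPKM, a ratio of 0.714 (0.687 to 0.742). Its difference lay at percentile 7.29 of all genes. APAF1, the scaffold of the apoptosome, had 2.48 and 3.09 FPKM, a ratio of 1.24 (1.01 to 1.53). CASP9, the initiator caspase activated on it, had 2.06 and 3.23 FPKM, a ratio of 1.57 (1.304 to 1.90) from 193 and 280 reads, at percentile 83.1 of all genes. DIABLO, which neutralises the inhibitor of apoptosis proteins, was listed at only 0.497 and 0.620 FPKM from 20 and 23 reads. In GENCODE 44 the same-strand genes ENSG00000256861 and ENSG00000284934 overlap 31.5% of its exonic bases, so reads of DIABLO may have been split or discarded in counting, which was not tested. Its level is uncertain for this reason, and its ratio of 1.25 (0.654 to 2.39) spanned 1.

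Of the other caspases past the filter, CASP4 was higher in the A375-VR library by nearly as much as CASP9, with differences of 0.45 and 0.47. CASP8, CASP6 and CASP2 differed less. CASP4, a caspase of the inflammatory branch that senses bacterial lipopolysaccharide, had 5.95 and 8.48 FPKM, a ratio of 1.42 (1.296 to 1.57). CASP8, the initiator of the receptor route, had 7.46 and 8.64 FPKM, a ratio of 1.16 (1.06 to 1.27). CASP6, an effector caspase that cuts lamin A, was the most abundant caspase of the 6 in the list in both libraries, at 10.00 and 9.49 FPKM, with a ratio of 0.949 (0.811 to 1.11). CASP2, an initiator tied to DNA damage and mitotic errors, had 3.60 and 3.50 FPKM, a ratio of 0.972 (0.855 to 1.10). CASP10, a neighbour and relative of CASP8, was listed at 0.340 and 0.480 FPKM from 23 and 30 reads, and the interval of its ratio, 1.41 (0.794 to 2.55), spanned 1. None of the 5 caspases past the filter was 2-fold apart, and their median difference was 0.19.

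Of the inhibitor of apoptosis genes, XIAP and BIRC6 were slightly higher in the A375-VR library and BIRC2 was level. BIRC2 (Entrez 329; chromosome 11 at 102217942 to 102249401, plus strand of GRCh37), the ubiquitin ligase cIAP1, had 24.1 and 24.2 FPKM, a ratio of 1.00 (0.915 to 1.10), and a difference that fell below 0 with centring or the trimmed mean. Its neighbour BIRC3 (chromosome 11 at 102188215 to 102210134, plus strand), which encodes cIAP2 and is known as an NF-kB target, was listed at 0.388 and 0.825 FPKM from 26 and 51 reads, a ratio of 2.13 (1.301 to 3.55). BIRC2 exceeded BIRC3 62.1 times in FPKM in A375 and 29.3 times in A375-VR. XIAP, the direct inhibitor of caspases 3, 7 and 9, had 5.01 and 6.48 FPKM, a ratio of 1.29 (1.18 to 1.42). The giant ligase BIRC6 had 5.65 and 7.27 FPKM, also a ratio of 1.29 (1.18 to 1.41).

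Among the death receptor adaptors, TRADD was higher in the A375-VR library. TRADD (Entrez 8717; chromosome 16 at 67188088 to 67193812, minus strand), which binds the TNF receptor, had 3.96 and 7.18 FPKM, a ratio of 1.81 (1.504 to 2.19) from 181 and 303 reads. Its difference of 0.72, at percentile 92.6 of all genes, was the highest of the 27 members past the filter. RIPK1, the kinase that TRADD recruits, had 7.31 and 9.17 FPKM, a ratio of 1.25 (1.12 to 1.41). FADD, the adaptor of caspase-8, had 11.7 and 11.1 FPKM, a ratio of 0.943 (0.812 to 1.09), and an antisense gene covers 59.2% of its exonic bases. CFLAR, the inhibitor c-FLIP, was listed at 0.451 and 0.575 FPKM. That low level rests on a long gene model, recovered at 22529 bp, since FPKM divides by length. With 22478 bp of annotated exons CFLAR is the longest of the 36, followed by BIRC6 with 18535 bp. CFLAR had 181 and 213 recovered reads, as many in the A375 library as TRADD, which had 181 and 303. Its ratio was 1.28 (1.04 to 1.56).

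The order of the levels was nearly the same in both libraries. MCL1, CYCS, BAX, BCL2L1 and BAK1 were the 5 highest in the A375 library, and MCL1, BAX, CYCS, BAK1 and BIRC2 in the A375-VR library. The 5 highest made up 59.7% of the summed FPKM of the 36 genes in the first and 60.6% in the second. That sum was 505 and 491 FPKM. At the other end, 9 members lay below 1 FPKM in both libraries: BCL2, BCL2A1, BMF, BCL2L11, HRK, CASP10, BIRC3, CFLAR and DIABLO. Of these 9, 7 had a difference above 0, as did 63.3% of the 4643 genes below the filter with a level above 0 in 1 library or both. The counting interval lay above 1 for 5 of the 9 (16% of those genes), below 1 for 1 (5.06%) and spanned 1 for 3 (78.9%). Whether an interval spans 1 depends on reads, and the 9 were not matched to genes with like reads. The 9 ranged from BCL2A1, with 0 and 8 recovered reads, to CFLAR, with 181 and 213. Their counts therefore cannot be set directly against these shares. BCL2L1 moved from rank 4 to rank 7, BOK from rank 13 to rank 23, and BIK from rank 24 to rank 31. BIK had the largest difference in size, and BCL2L1 the largest among members above 5 FPKM.

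**Figure D4:**
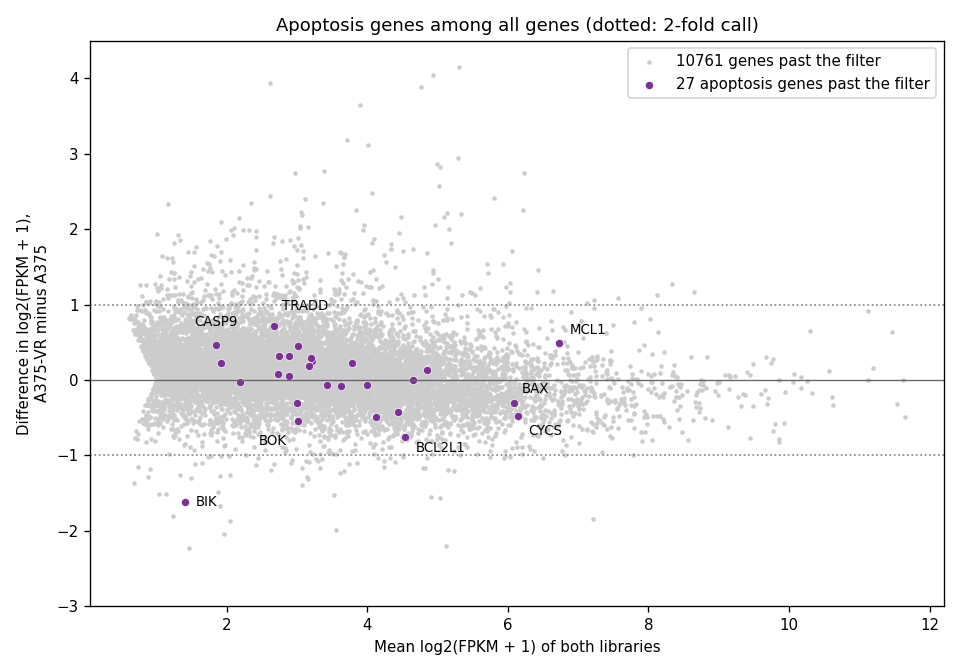
Difference in log2(FPKM + 1) between the libraries (vertical axis, A375-VR minus A375) against the mean log2(FPKM + 1) (horizontal axis) for the 10761 genes past the filter (grey) and the 27 apoptosis genes past it (purple). Only BIK of the purple points lies outside the dotted lines of the 2-fold call.

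Genes that act with these members were taken from 7 further lists, on which 110 genes were measured and 87 passed the filter. Of the 87, 2 were higher by 2-fold or more (3.14% of all genes) and 0 were lower by 2-fold or more (0.613% of all genes), and the median difference was 0.09 (-0.05 with the trimmed mean). On the list of death ligands and receptors the 9 genes past the filter were all receptors, and the ligands FASLG, TNFSF10, TNF and LTA were listed at 0 in both libraries. A difference above 0 was found for 7 of the 9 receptors (60.3% of all genes), with a median of 0.40 beside 0.10 for all genes, and TNFRSF1B, at 0.581 and 1.08 FPKM, passed the filter through the A375-VR library alone. TNFRSF21, the death receptor DR6, had 37.8 and 58.5 FPKM, a ratio of 1.55 (1.47 to 1.63), and TNFRSF10B, the TRAIL receptor DR5, 20.0 and 28.8 FPKM, a ratio of 1.43 (1.32 to 1.56). TNFRSF12A, the receptor of TWEAK, was lower, with 175 and 110 FPKM, a ratio of 0.630 (0.593 to 0.670). None of the 9 was 2-fold apart.

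Signalling genes below the receptors had 13 members past the filter, 0 of them 2-fold apart, and a median of 0.12 (-0.01 with the trimmed mean). CYLD, which trims ubiquitin chains from RIPK1, had 1.47 and 2.76 FPKM, a ratio of 1.88 (1.64 to 2.15), and TNFAIP3, the ubiquitin editor A20, 4.77 and 7.07 FPKM, a ratio of 1.48 (1.31 to 1.68). PIDD1, the scaffold that activates caspase-2, had 6.29 and 3.98 FPKM, a ratio of 0.632 (0.556 to 0.718). Caspase substrates, nucleases and other caspases had 13 members past the filter, 0 of them 2-fold apart, and a median of 0.04 (below 0 with centring or the trimmed mean). LMNB1, a lamin cut by caspases and known to follow proliferation, had 73.3 and 37.6 FPKM, a ratio of 0.514 (0.488 to 0.540), which passed the 2-fold call with centring or the trimmed mean, and PARP1, a classic caspase substrate, 87.3 and 64.9 FPKM, a ratio of 0.744 (0.723 to 0.766). GSDME, a pore former cut by caspase-3, had a ratio of 1.32 (1.15 to 1.52).

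The list of other mitochondrial BCL2-interacting genes had 17 members past the filter, 0 of them 2-fold apart, and a median of 0.02 (below 0 with centring or the trimmed mean). MOAP1, which binds BAX, had 7.61 and 12.1 FPKM, a ratio of 1.59 (1.38 to 1.83), and the co-chaperone BAG3 had a ratio of 1.31 (1.25 to 1.38). VDAC3, a channel of the outer membrane, had a ratio of 0.787 (0.742 to 0.834). The further inhibitor of apoptosis genes had 4 members past the filter, 0 of them 2-fold apart, and a median of -0.10. BIRC5, survivin, which also acts in mitosis, had 41.7 and 25.2 FPKM, a ratio of 0.604 (0.568 to 0.643), ARIH2 had a ratio of 0.900 (0.848 to 0.954), and TNFAIP8 had a ratio of 1.17 (0.977 to 1.40). Genes that govern the turnover of BCL2 family proteins had 15 members past the filter, 0 of them 2-fold apart, and a median of 0.15. The kinases PIM1 and PIM2, which phosphorylate BAD, went opposite ways, with ratios of 0.489 (0.392 to 0.606) and 1.56 (1.32 to 1.84), and PIM1 passed the 2-fold call with a pseudocount of 0.1. The 14-3-3 gene YWHAE, whose protein holds phosphorylated BAD, had 257 and 189 FPKM, a ratio of 0.736 (0.719 to 0.753).

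Both 2-fold differences in these lists were in FOXO genes, transcription factors known to drive BH3-only genes such as BCL2L11 and BMF. FOXO4 had 0.717 and 3.64 FPKM, a ratio of 5.07 (3.65 to 7.19), and FOXO1 0.892 and 3.24 FPKM, a ratio of 3.63 (2.89 to 4.60). Both passed the filter through the A375-VR library alone. The list of transcription factors had 16 members past the filter and a median of 0.18. E2F1, the cell cycle factor known to act on several pro-apoptotic genes, had 31.1 and 15.2 FPKM, a ratio of 0.487 (0.442 to 0.536), and a difference of -0.99, just short of the 2-fold call, which it passed with a pseudocount of 0.1 and under 3 of the 4 scalings. MITF had a ratio of 0.537 (0.476 to 0.605).

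**Figure D5:**
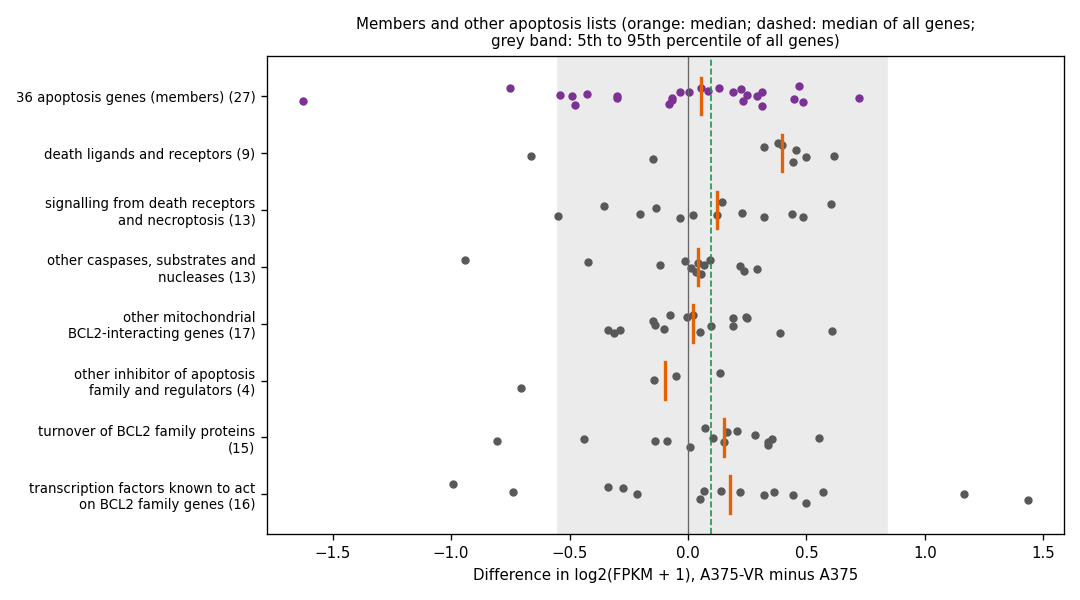
Difference in log2(FPKM + 1), A375-VR minus A375 (horizontal axis), for the apoptosis members and 7 further lists, with 1 point per gene past the filter, the median in orange, the median of all genes as a dashed line at 0.10 and a band from -0.55 to 0.84 for the 5th to 95th percentile of all genes. Most points lie inside the band; BIK and BCL2L1 lie left of it among the members. Among the further lists E2F1, LMNB1, PIM1, MITF, BIRC5 and TNFRSF12A lie left of it, PIDD1 lies at its left edge, and FOXO1 and FOXO4 lie right of it.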

How the data were processed

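Messenger RNA of 2 libraries, titled A375, Prop and A375-VR, Prop, was analysed, with groups taken from the titles. Per the series design text, which the labels carry, a stranded TruSeq kit and a HiSeq 2000 gave paired reads of 150 bp, which TopHat 1.3.3 placed on GRCh37. How reads were counted, with which annotation, filters and strand setting, is not given in the sources used here. Both deposited files hold FPKM computed by the authors, 1 value per gene.

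From these, log2(FPKM + 1) was compared over all 20344 genes with Python 3.11.15 and scipy 1.17.1, with a filter at FPKM 1 in at least 1 library and a call at a difference of 1 (2-fold). No count test or p-value was possible with 1 library per group. FPKM is a whole number of reads divided by gene length and library total, so the totals were found as the most common shared divisor of the scaled inverse FPKM of low genes. Factors were set by GENCODE 44 exon lengths, which 15.5% of 3000 sampled genes matched exactly under the totals used and 14.4% under the next best of 15 pairs tried. In the 2099 genes with an equal length, 45.3% and 46.2% of the recovered reads were even. The recovered reads are the smallest whole numbers that fit, so true counts can be multiples and intervals can be too wide. The steps were tested on simulated data.

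The members and lists were chosen with earlier results of these data known. All members are accounted for. Positions and fuller values are given for those at least 2-fold apart, those at least 1.5-fold apart with an interval that leaves out the median gene, and the highest of each role. Up to 3 genes with the largest difference were named from each further list, plus MITF and E2F1. Some items covered by these rules are not reported here. Cell type markers were as listed in the text. Alternatives were another pseudocount, other filters and 4 scalings.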

Additional observations from a re-analysis of the deposited data

How the results depend on the processing

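BIK was the 1 member 2-fold lower with a pseudocount of 0.1, without the filter and under all 4 scalings. With the filter at FPKM 5 it was left out, so 0 members were 2-fold lower. No member was 2-fold higher under any of the 7 alternatives. The 9 members below 1 FPKM in both libraries could not have been called under any of them. Either the filter left them out or, without it, the pseudocount of 1 kept their differences below the call. The median difference of the members moved from 0.0534 to 0.0608 with a pseudocount of 0.1, 0.1158 without the filter, 0.0817 after rescaling to a sum of 1000000, 0.0770 with a common sum without mitochondrial genes, -0.0270 after centring on the median ratio and -0.0749 with the trimmed mean of log ratios. That last scaling took the median gene from 0.10 to -0.03, a shift that every small difference shares. Of 185 member differences recomputed, 12 moved by more than the longer arm of their counting interval on the log2 scale. These moves, under centring or the trimmed mean, were in MCL1, BAX, CYCS, BAK1, BCL2L13, BNIP2, CASP8, BIRC2 and BIRC6. With the trimmed mean MCL1 went from 0.4845 to 0.3368, BAX from -0.2985 to -0.4449 and CYCS from -0.4787 to -0.6251. Under some settings BBC3, BIRC2, BCL2L2 and BAK1 changed sign. Over all genes, 338 higher and 66 lower became 689 and 140 with a pseudocount of 0.1, and 624 and 104 after rescaling to a sum of 1000000. With the trimmed mean they became 248 and 116, and after centring 281 and 95. Depth limits the members with few reads, BCL2A1, BIK, BMF, DIABLO, CASP10, BIRC3 and HRK, each at or below 62 reads in both libraries. No paired analysis was possible because each group has 1 library.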
